A study of Rattus norvegicus with 8 samples.

Results

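The genes described here encode SNAREs, synaptotagmins and their partners in vesicle fusion, measured in the hypothalamus of female and male rats. They were taken by symbol: every non-control spot of the arrays whose gene name was a numbered Syt, Stx, Stxbp, Vamp, Snap, Cplx or one of the synapsins Syn1, Syn2 and Syn3. This gave 57 genes on 67 probes and 103 spots, of 19167 gene names, 30367 probes and 42877 spots in all. The symbols covered 16 synaptotagmins, 15 syntaxins, 7 syntaxin-binding proteins, 7 VAMPs, 5 SNAPs, 4 complexins and 3 synapsins. Snap91 met the rule by its symbol, although it encodes the clathrin assembly protein AP180 and not a SNARE. Of the 67 probes, 63 probes of 53 genes were bright enough to test. The other 4 were single probes of Stxbp5l, which was well above background in 2 females and 2 males, and of Stxbp4, Cplx4 and Syt15, which were not well above background in any animal.

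The study asked how hypothalamic gene expression differs between the sexes in young rats. Total RNA came from 4 females in estrus and 4 males of the Sprague Dawley strain, 3 to 4 months old and housed individually, and no treatment or altered allele is named for either group. All females were in estrus, so sex and cycle stage cannot be told apart. Each of 4 arrays on 1 slide held 1 female and 1 male with the same replicate number, labelled with the dyes Cy3 and Cy5. Females 1 and 3 and males 2 and 4 were in Cy3, and females 2 and 4 and males 1 and 3 in Cy5.

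In regulated secretion, a SNARE on the vesicle (a VAMP) zips together with SNAREs on the target membrane (a syntaxin and a SNAP) and pulls the membranes into contact. Syntaxin-binding proteins hold syntaxin and guide assembly, complexins clamp and release the assembled bundle, and synaptotagmins sense calcium and trigger fusion, while synapsins tether the reserve vesicles. Other members of the same families carry out fusion at the Golgi, endosomes and lysosomes, and in the hypothalamus the machinery serves both fast synapses and the release of neuropeptides such as oxytocin and vasopressin.

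The arrays read each gene through 60-base probes, and the following are those on which the results below turn. The Snap25 probes are shown because their fitted ratios were the lowest of all members, and furthest from 0, and they lie 396 bases apart in the same gene. The Stx7 and Vamp8 probes are those with the smallest p-values, and those of Snap91 and Cplx2 show how 1 animal stood apart. Positions are on the rn4 build as the array files give them, letters run 5′ to 3′, and capitals mark TAA, the letters of a stop codon, at the end of the upstream Snap25 probe. The letters shown are the whole probe for 3 of them and the first 30 of 60 bases for the others, which are named as such.
Snap25 upstream, chr3:124893320-124893379, plus strand: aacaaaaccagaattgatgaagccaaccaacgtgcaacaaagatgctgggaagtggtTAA
Snap25 downstream, first 30 bases, chr3:124893776-124893835, plus strand: ttcttgtaaaactgtgacattccacagagc
Stx7, first 30 bases, chr1:21722361-21722420, minus strand: aagcgtctgaaaaacccataccaatgtctg
Vamp8, chr4:105692462-105692521, minus strand: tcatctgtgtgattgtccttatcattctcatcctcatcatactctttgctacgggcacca
Snap91, chr8:92040209-92040268, minus strand: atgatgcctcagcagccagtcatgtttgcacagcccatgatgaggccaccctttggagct
Cplx2, first 30 bases, chr17:16314592-16314651, minus strand: cccttcacaagcccttcatccagggtttct

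Levels are log2 intensities in each animal's own dye channel after background correction and normalization, and a ratio is the female level minus the male level on the same array, in log2 units. A level carries a dye effect that differs from probe to probe, so levels were set only against those of the same probe. Each channel had 77.6% to 87.0% of its spots well above background and 0 saturated spots, and the dimmer channel on every array was Cy5. In bulk tissue, fewer cells of a type and less RNA per cell cannot be told apart.

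Male 2 stood apart from the other 7 animals in the markers of its tissue. After removal of the dye effect and centring of each gene over the 8 animals, the median over 17 of 18 listed hypothalamic markers was -1.80 in male 2 and -0.04 to 0.60 in the others. The median over 11 of 15 listed markers of cortex, hippocampus and striatum was 1.33 in male 2, 0.31 in female 2 and -0.42 to -0.09 in the rest. Against male 4, which has the same sex and dye, male 2 was lower in 17 of 17 hypothalamic markers, by -4.38 for Avp, -3.55 for Oxt and -4.64 for Pmch. It was higher in 8 of 11 markers of cortex, hippocampus and striatum. The increases were largest for Neurod6 (5.60) and Neurod2 (5.27), which are transcription factors of cortical excitatory neurons. They were smallest for Adora2a (0.84) and Ppp1r1b (0.46), and Rgs9 (-0.69), Rprm (-0.67) and Drd2 (-0.58) were lower. Neurod6 was also higher in female 2 than in female 4, by 3.74. The summed log2 level of the hypothalamic list was 195 to 198 in females and 158 to 197 in males. That of the cortex, hippocampus and striatum list was 103 to 113 in females and 106 to 126 in males. Hypothalamic markers were well above background in every animal, 16 of 17 in male 2 and female 4 and 17 of 17 in the others. Of the markers of cortex, hippocampus and striatum, 10 or 11 of 11 were well above background. Member sex ratios given below that changed sign or moved by over 1.5 times without array 2, which held female 2 and male 2, are therefore given with and without it. Without it, array 4 was the only array with the female in Cy5, so that the dye and array 4 cannot be told apart. Each probe's own spread then came from arrays 1 and 3.

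**Figure D1:**
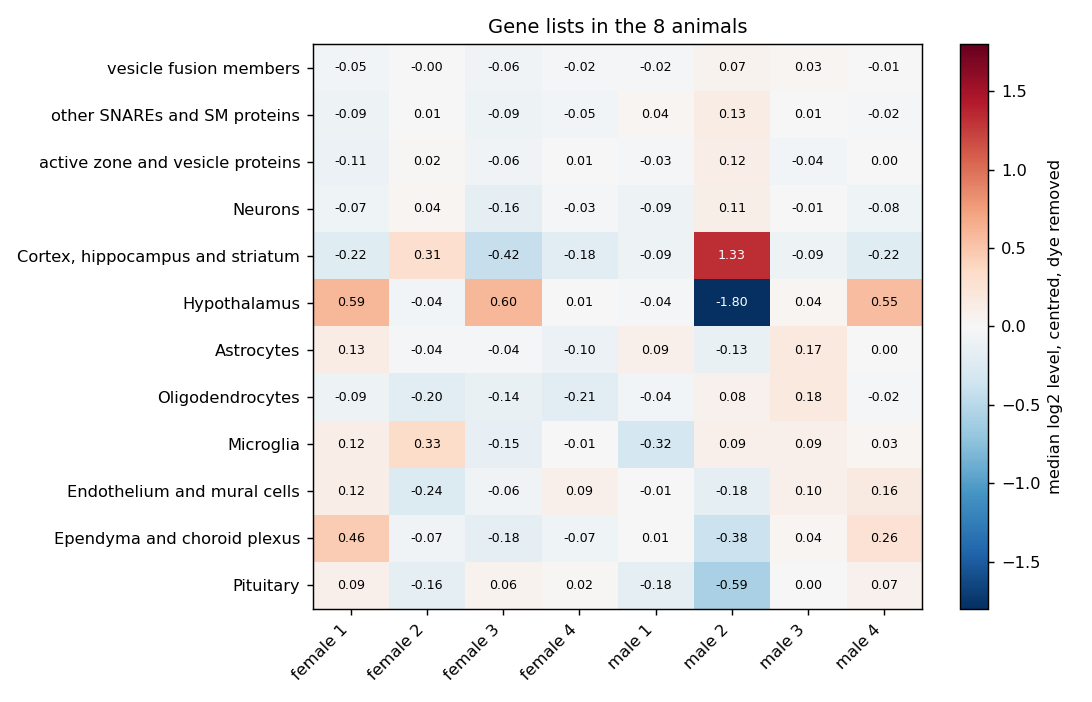
Median log2 level of each gene list (vertical axis) in each of the 8 animals (horizontal axis), with the dye effect removed and each gene centred over the animals, and colour and printed number both giving the median in log2 units. Male 2 holds both extremes, 1.33 for the cortex, hippocampus and striatum list and -1.80 for the hypothalamus list, while the vesicle fusion members lie between -0.06 and 0.07.

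No vesicle fusion gene passed the test for a sex difference. With limma and Benjamini-Hochberg adjustment over all probes, 0 of the 63 member probes had an adjusted p under 0.05, as did 0 of 21995 probes tested (0%), and the lowest adjusted p among members was 0.555. At an unadjusted p under 0.05 there were 2 of 63 member probes, 3.17%, against 8.5% of all probes. Stx7 was the 1 that was lower in females (3.52% of all probes were higher in males at that threshold) and Vamp8 the 1 that was higher in females (4.98%). These p-values measure the spread between 4 arrays, and an exact two-sided test over 4 arrays could not give a p below 0.125.

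The fitted ratio was below 0 for 40 of the 63 member probes, 63.5%, against 43.9% of all probes, and its median over members was -0.05 against 0.02 over all probes. The members ranged from -0.91 to 0.36. Without replicate 2 the ratio was below 0 for 41 of 63, against 42.6% of all probes, with a median of -0.02 against 0.02. With all arrays, the ratios of marker lists were below 0 for 0 of 17 hypothalamic markers (median 0.63), 8 of 11 of cortex, hippocampus and striatum (median -0.43) and 7 of 8 of oligodendrocytes (median -0.20), and their part in the members' ratios was not tested. The hypothalamic markers Pmch, Ghrh and Hcrt were above 0 on array 2 alone (4.90, 2.47 and 2.18). Kiss1, Gnrh1, Trh and Gal were above 0 on all 4 arrays, and the other hypothalamic markers on 2 or 3. By family, the ratio was below 0 for 13 of 19 syntaxin probes, 9 of 17 synaptotagmin probes, 5 of 9 VAMP probes, 3 of 6 SNAP probes, 4 of 5 syntaxin-binding protein probes, 3 of 4 complexin probes and 3 of 3 synapsin probes. The family medians were -0.24 for SNAPs, -0.13 for complexins and between -0.07 and -0.03 for the other families. Without replicate 2 the medians were -0.14 for SNAPs and, with the opposite sign, 0.09 for complexins, and on array 2 alone they were -1.48 and -0.69.

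The sign seldom held on all 4 arrays. Among the 62 member probes measured on every array, 3 had a ratio below 0 on each (Stx7, Stx16 and Snap91), or 4.84%, against 5.84% of all probes. The ratio was above 0 on each array for 0 of 62 members, against 5.28% of all probes. With the dye effect left in, the levels of the 4 females and the 4 males did not overlap for 2 of 62 (Stx16 and Snap91). This was 3.23%, against 2.83% of all probes. The shares of 4.84% and 3.23% were near the background, and the 0 of 62 was below its 5.28%.

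**Figure D2:**
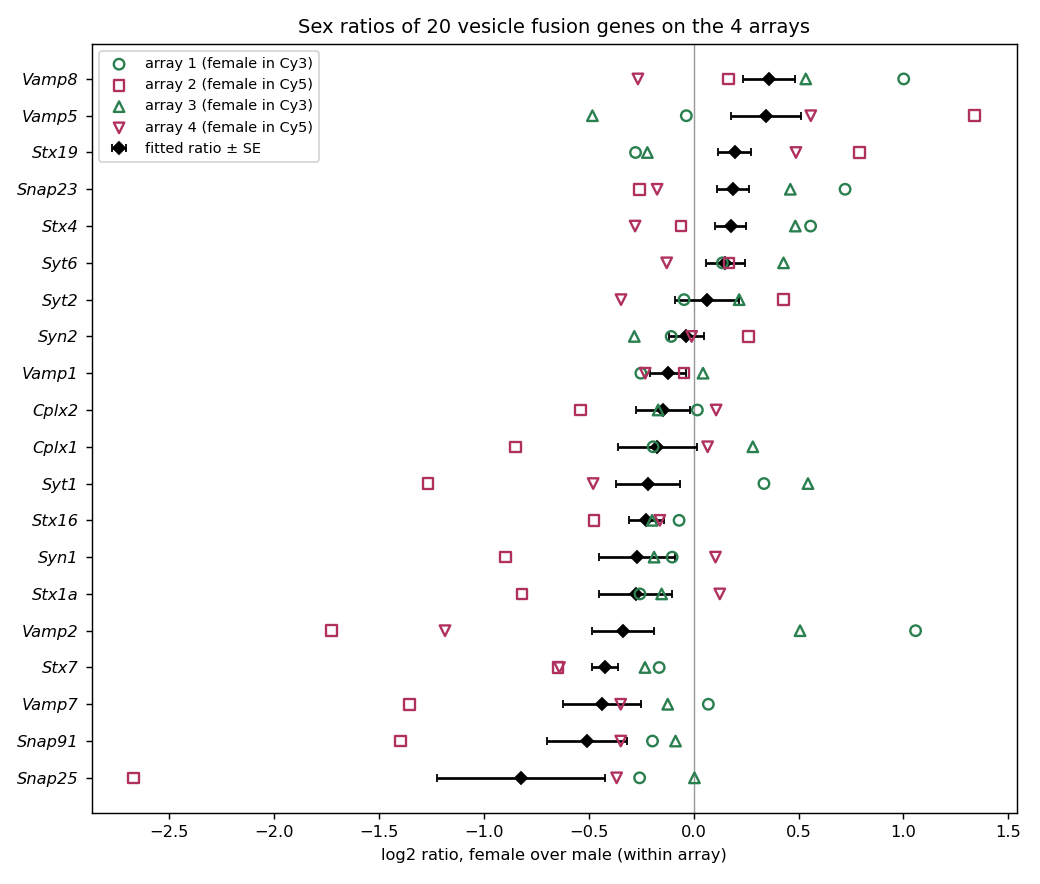
Log2 ratio of female over male (horizontal axis) on each of the 4 arrays for 20 vesicle fusion genes (vertical axis), with open symbols for single arrays coloured by the female's dye, and filled diamonds with bars for the fitted ratio ± SE. Array 2 gives the lowest point for Snap25, at -2.67, while Stx7 lies between -0.65 and -0.16 on all 4 arrays.

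Among the SNAREs of endosomes and lysosomes, Stx7 gave the smallest p. Its protein is the syntaxin of late endosome and lysosome fusion. The log2 level was 12.45, 11.86, 12.50 and 12.31 in females 1 to 4 and 12.61, 12.50, 12.74 and 12.95 in males 1 to 4. Female 2 was lowest and male 4 highest, and the groups met at 12.50, where female 3 and male 2 lay. Its ratio was -0.16, -0.65, -0.23 and -0.64 on arrays 1 to 4, and the fitted ratio was -0.42 ± 0.06 (SE, 4 arrays), a 1.34-fold lower level in females (limma, unadjusted p = 0.00192, Benjamini-Hochberg adjusted p = 0.555). The ratios furthest from 0 came from the arrays with the female in Cy5. Without replicate 2 the ratio was -0.42 ± 0.07 (limma, unadjusted p = 0.00415, adjusted p = 0.598).

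Vamp8 encodes an R-SNARE of endosomes that also serves regulated secretion outside neurons. Its level was 11.58, 10.89, 11.14 and 10.84 in females 1 to 4 and 10.58, 10.73, 10.60 and 11.10 in males 1 to 4. Female 1 was highest, and male 4, in Cy3, was above females 2 and 4, in Cy5. The groups overlapped in these levels, which hold a dye effect of -0.41 ± 0.12 (Cy5 over Cy3). Within each dye the females lay above the males. The ratio was 1.00, 0.16, 0.53 and -0.27 on arrays 1 to 4, and the fitted ratio 0.36 ± 0.12 (SE, 4 arrays; limma, unadjusted p = 0.0421, adjusted p = 0.555). Without replicate 2 it was 0.25 ± 0.12 (limma, unadjusted p = 0.112). The probe of Vamp5, a VAMP known from muscle, lies on the same chromosome at chr4:105673889-105673948. Its level was 11.21, 11.12, 10.85 and 11.39 in females 1 to 4 and 11.24, 9.78, 11.34 and 10.83 in males 1 to 4, with male 2 far below the others. The ratio of Vamp5 was 1.34 on array 2 and -0.48 to 0.56 on the others, and the fitted ratio was 0.34 ± 0.17 with all arrays and 0.15 ± 0.12 without replicate 2. The ratio was highest on array 1 for Vamp8 and on array 2 for Vamp5. Single-array ratios hold the dye effect, which was -0.41 ± 0.12 for Vamp8 and 0.60 ± 0.17 for Vamp5 (Cy5 over Cy3). They therefore do not show whether these genes followed each other from array to array.

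Vamp7 encodes a VAMP of late endosomes and lysosomes that resists tetanus toxin. Its level was 12.22, 11.60, 12.26 and 11.95 in females 1 to 4 and 12.15, 12.95, 12.38 and 12.30 in males 1 to 4. Female 2 was lowest and male 2 highest. Female 1, in Cy3, lay above male 1, in Cy5, with a dye effect of -0.41 ± 0.19 (Cy5 over Cy3) left in. Within each dye the females lay below the males. The ratio was 0.07, -1.35, -0.12 and -0.35 on arrays 1 to 4, fitted as -0.44 ± 0.19 (limma, unadjusted p = 0.0738) and as -0.19 ± 0.08 without replicate 2. Stx16 encodes a syntaxin of the trans-Golgi network, and its brightest probe had a level of 8.58, 8.24, 8.55 and 8.46 in females 1 to 4 and 8.65, 8.72, 8.74 and 8.62 in males 1 to 4. All 4 females lay below all 4 males. The fitted ratio was -0.23 ± 0.08 (limma, unadjusted p = 0.051) and -0.15 ± 0.07 without replicate 2. The ratio of this probe was -0.40 with the scanner software's log ratio and -0.56 with the deposited value table. The other Stx16 probes gave -0.05 and -0.03, or -0.09 and -0.06 without replicate 2. Their levels were only 7.01 to 7.27, where the constant added in background correction makes ratios smaller, so they cannot be set against the brightest probe.

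Snap23 and Stx4, which act at the plasma membrane of many cell types, had fitted ratios above 0. Snap23 encodes the broadly expressed relative of SNAP-25, and its level was 9.72, 9.33, 9.54 and 9.34 in females 1 to 4 and 9.0, 9.59, 9.08 and 9.52 in males 1 to 4. Stx4 encodes the syntaxin that often pairs with it, and its level was 11.35, 11.04, 11.16 and 10.90 in females 1 to 4 and 10.80, 11.10, 10.68 and 11.18 in males 1 to 4. In both genes the Cy3 animals were above the Cy5 animals of the same sex. With the female in Cy3 the ratios of Snap23 were 0.72 and 0.46, and with the female in Cy5 they were -0.26 and -0.17. For Stx4 they were 0.56 and 0.48 against -0.06 and -0.28. With the dye term, the fitted ratio was 0.19 ± 0.08 for Snap23 and 0.18 ± 0.07 for Stx4 (limma, unadjusted p = 0.0667 and 0.0684). The sign turned with the dye in both.

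Stx19 encodes a syntaxin without a membrane anchor of its own. Its level was 8.47, 9.08, 8.96 and 9.32 in females 1 to 4 and 8.75, 8.29, 9.18 and 8.83 in males 1 to 4. Here the Cy5 females were the higher ones, and the ratio was -0.28, 0.79, -0.22 and 0.49 on arrays 1 to 4, so the sign again turned with the dye. The fitted ratio was 0.20 ± 0.08 (limma, unadjusted p = 0.0686), or 0.12 ± 0.07 without replicate 2.

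Snap25, the neuronal SNAP of the plasma membrane, had the ratios furthest from 0 of all members, and the extreme values came from array 2. On the downstream probe, which was the brighter one, the level was 14.78, 13.61, 15.00 and 14.70 in females 1 to 4 and 15.04, 16.28, 15.00 and 15.07 in males 1 to 4. On the upstream probe it was 13.89, 12.25, 14.06 and 13.32 in females and 13.80, 15.52, 13.71 and 14.11 in males. On both probes female 2 was the lowest and male 2 the highest of the 8 animals, while the other 6 lay between them. The ratio on array 2 was -2.67 downstream and -3.26 upstream, and on arrays 1, 3 and 4 it was -0.26, 0.00 and -0.37 downstream and 0.09, 0.35 and -0.79 upstream. The fitted ratio was -0.82 ± 0.40 downstream and -0.91 ± 0.43 upstream (SE, 4 arrays; limma, unadjusted p = 0.106 and 0.099). The probes shared the extreme on array 2 and had opposite signs on array 1. Each ratio holds its probe's dye effect, which was -0.70 ± 0.40 downstream and -1.12 ± 0.43 upstream (Cy5 over Cy3), so the signs on 1 array do not set the probes apart by sex. Without replicate 2 the ratio was -0.25 ± 0.09 and -0.29 ± 0.09 (limma, unadjusted p = 0.0511 and 0.032, adjusted p = 0.598 for both).

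Stx1a encodes a syntaxin of the synapse. Its level was 12.82, 13.34, 12.87 and 13.06 in females 1 to 4 and 13.08, 14.16, 13.02 and 12.94 in males 1 to 4. Male 2 was highest, and female 2 was the highest female. Its ratio was -0.82 on array 2 and -0.26 to 0.12 on the others, fitted as -0.28 ± 0.17 and as -0.04 ± 0.07 without replicate 2.

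The VAMPs of synaptic vesicles were Vamp1 and Vamp2. The Vamp2 level was 14.05, 12.59, 13.58 and 12.70 in females 1 to 4 and 12.99, 14.31, 13.07 and 13.88 in males 1 to 4. All 4 Cy3 animals lay above all 4 Cy5 animals, whatever their sex. The Vamp2 ratio was 1.06, -1.73, 0.51 and -1.19 on arrays 1 to 4, fitted as -0.34 ± 0.15 (limma, unadjusted p = 0.078) and as -0.20 ± 0.14 without replicate 2. The brighter Vamp1 probe had a level of 13.91, 14.04, 13.96 and 13.99 in females 1 to 4 and 14.16, 14.08, 13.91 and 14.22 in males 1 to 4. Male 3 lay among the females, and the fitted ratio was -0.12 ± 0.09, or -0.07 ± 0.06 on the other probe.

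**Figure D3:**
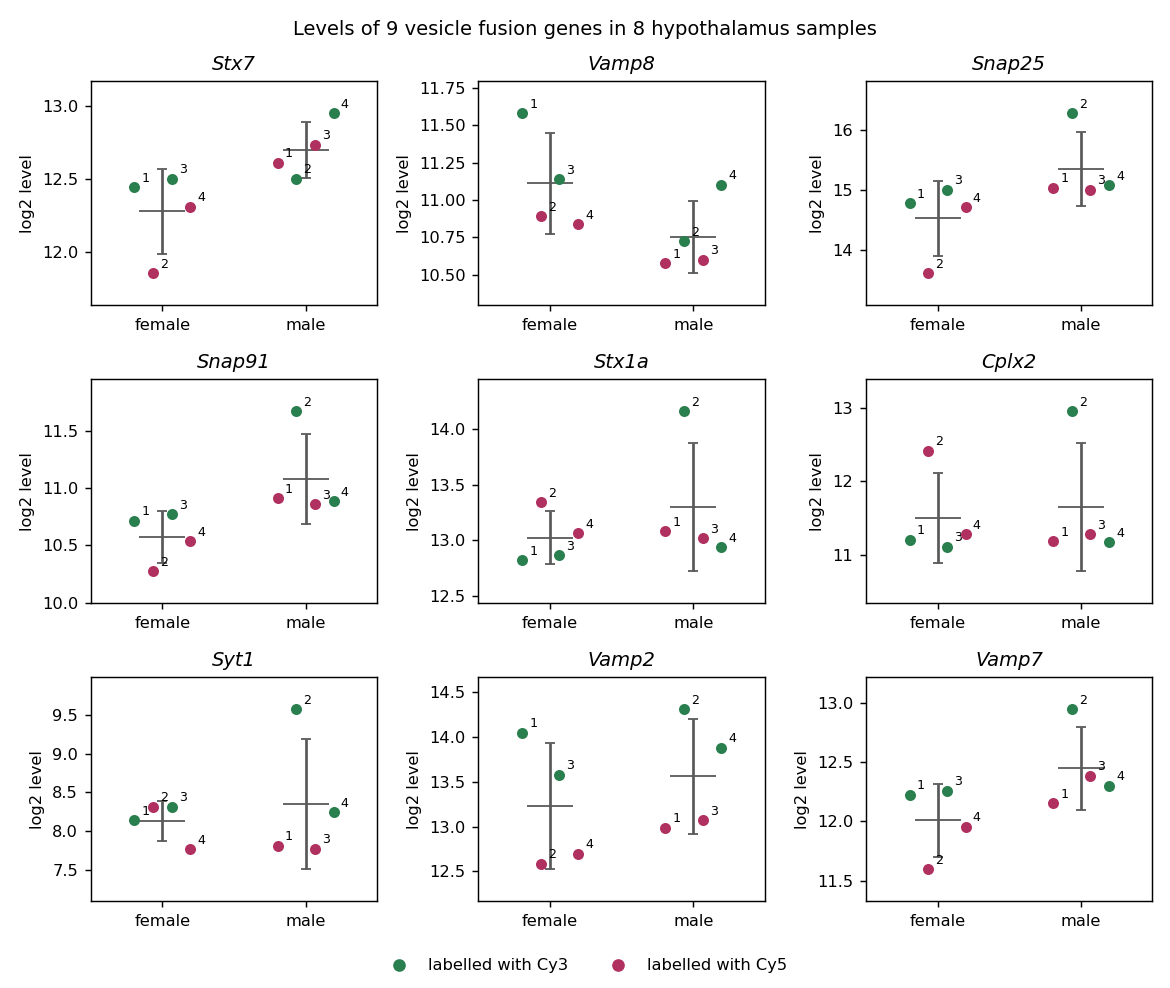
Log2 level (vertical axis) of 9 vesicle fusion genes in the 4 females and 4 males, each point 1 animal marked with its replicate number and coloured by dye, with the group mean and SD as a line and bar. Male 2 stands above the other males in Snap25, Snap91, Stx1a, Cplx2 and Syt1, and female 2 above the other females in Cplx2.

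The Cplx2 level was 11.21, 12.42, 11.11 and 11.28 in females 1 to 4 and 11.19, 12.96, 11.28 and 11.17 in males 1 to 4. Female 2 and male 2 stood above the other 6 animals, which lay within 11.11 to 11.28. Its ratio was 0.02, -0.54, -0.17 and 0.11 on arrays 1 to 4, fitted as -0.15 ± 0.13 and as 0.02 ± 0.08 without replicate 2. The brighter Cplx1 probe had a level of 14.43, 15.00, 15.13 and 14.65 in females 1 to 4 and 14.62, 15.85, 14.85 and 14.59 in males 1 to 4. Male 2 was again the highest, the ratio on array 2 was -0.85, and the fitted ratio was -0.17 ± 0.19 with all arrays and 0.06 ± 0.12 without replicate 2. Cplx3, known from retinal ribbon synapses, had a ratio of 0.17 ± 0.11, or 0.26 ± 0.11 without replicate 2.

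Among the calcium sensors of fast release, the Syt1 level was 8.14, 8.31, 8.32 and 7.77 in females 1 to 4 and 7.81, 9.58, 7.77 and 8.24 in males 1 to 4. Male 2 stood above all others. The ratio was 0.33, -1.27, 0.54 and -0.48 on arrays 1 to 4, fitted as -0.22 ± 0.15 and as -0.02 ± 0.08 without replicate 2. The Syt2 level was 8.69, 8.73, 8.89 and 8.87 in females 1 to 4 and 8.74, 8.31, 8.67 and 9.22 in males 1 to 4, with male 2 the lowest of all. Its ratio was 0.43 on array 2 and -0.35 to 0.22 on the others, fitted as 0.06 ± 0.15 and, with the opposite sign, as -0.13 ± 0.09 without replicate 2. Syt6 had a level of 7.45, 7.35, 7.65 and 7.38 in females 1 to 4 and 7.31, 7.18, 7.22 and 7.51 in males 1 to 4, with overlapping groups and a ratio of 0.15 ± 0.09, or 0.08 ± 0.09 without replicate 2.

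The synaptotagmin of neuropeptide vesicles, Syt4, gave different values on its probes. The brighter probe gave 0.02 ± 0.12 and the other -0.42 ± 0.19 (limma, unadjusted p = 0.895 and 0.0856). Without replicate 2 the brighter probe gave -0.07 ± 0.13 and the other -0.57 ± 0.19 (limma, unadjusted p = 0.0435). Of the 8 such genes reported here, each with several tested probes, the sign was the same on all probes for 5 and differed for 3 (Syt16, Syt4 and Vamp4), and the ratios of a gene's probes lay 0.05 to 0.43 apart. The dimmer Syt16 probe was fitted on 3 arrays, since its spot on array 2 was an outlier, and gave 0.13 ± 0.10.

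Of the synapsins, Syn1 had a level of 11.39, 11.28, 11.09 and 11.22 in females 1 to 4 and 11.49, 12.18, 11.27 and 11.12 in males 1 to 4. Syn2 had a level of 10.48, 11.23, 10.19 and 10.46 in females and 10.59, 10.97, 10.47 and 10.47 in males. Male 2 was the highest animal for Syn1 and female 2 for Syn2. The Syn1 ratio was -0.27 ± 0.18, and -0.02 ± 0.07 without replicate 2. The Syn2 ratio was -0.03 ± 0.08, and -0.10 ± 0.08 without replicate 2.

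Snap91 encodes AP180, which with clathrin retrieves synaptic vesicle membrane after fusion. Its level was 10.71, 10.27, 10.77 and 10.54 in females 1 to 4 and 10.91, 11.67, 10.86 and 10.89 in males 1 to 4. All 4 females lay below all 4 males, with male 2 far above the other 3 males. The ratio was -0.20, -1.40, -0.09 and -0.35 on arrays 1 to 4, fitted as -0.51 ± 0.19 (limma, unadjusted p = 0.0533, adjusted p = 0.555). Without replicate 2 it was -0.24 ± 0.07 (limma, unadjusted p = 0.0289, adjusted p = 0.598).

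Animals of the same sex and dye also differed in their synaptic genes. Male 2 was over 2-fold higher than male 4 in 9 of 62 member probes, 14.5%, against 3.34% of all probes. These were Syn1 (1.06 in log2), both Cplx1 probes (1.13 and 1.26), both Snap25 probes (1.20 and 1.40), Stx1a (1.22), Syt1 (1.34), Syt17 (1.35) and Cplx2 (1.79, or 3.45-fold). It was over 2-fold lower in 1 of 62, Vamp5 (-1.05), against 3.11% of all probes, and nearly so in the brighter Syt4 probe (-0.99), Syt10 (-0.98) and Syt2 (-0.91). Male 2 was the highest of the 4 Cy3 animals in 34 of 62 member probes, 54.8%, against 36% of all probes.

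Female 2 was over 2-fold higher than female 4 in 1 of 62 member probes, Cplx2 (1.14), against 0.478% of all probes, and over 2-fold lower in 2 of 62, both of Snap25 (-1.10 and -1.07), against 0.414%. So Cplx2 was high in both animals of array 2, while Snap25 was high in male 2 and low in female 2. Female 1 differed from female 3 by over 2-fold in 0 of 63 member probes in either direction (0.599% of all probes higher and 0.288% lower), and male 1 from male 3 in 0 of 63 (0.178% and 0.471%). The standard deviation of the member differences was 0.64 between males 2 and 4, 0.34 between females 2 and 4, 0.24 between females 1 and 3 and 0.16 between males 1 and 3. Over all probes it was 0.55, 0.29, 0.26 and 0.22 for these pairs, in the same order. The hypothalamic markers and those of cortex, hippocampus and striatum also differed in male 2, and their part in the member differences was not tested.

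**Figure D4:**
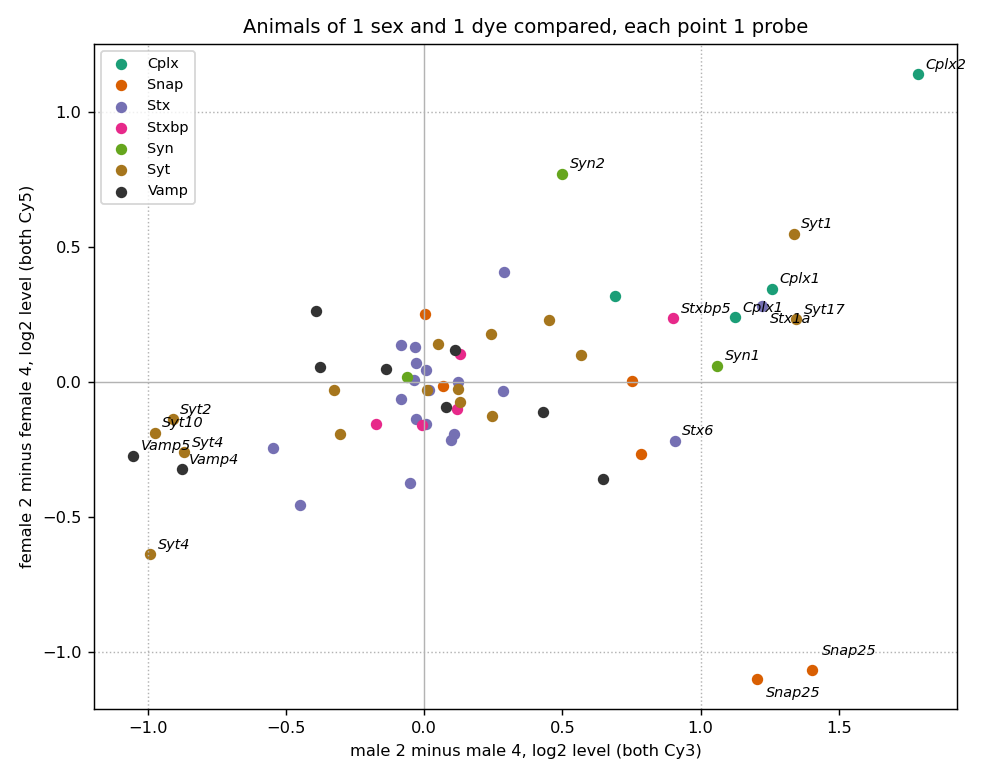
Difference in log2 level between male 2 and male 4, both in Cy3 (horizontal axis), and between female 2 and female 4, both in Cy5 (vertical axis), each point 1 member probe coloured by gene family, with dotted lines at a 2-fold difference. Cplx2 lies far out on both axes (1.79 and 1.14), and the Snap25 probes are high in male 2 and low in female 2.

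Without array 2 the ratio was closer to 0 for 7 of 10 genes of the neuronal fusion set, and further from it for Vamp1, Syt2 and Syn2. Array 2 also had the widest ratios over all probes (SD 0.61). The SD was 0.37 for array 1, 0.38 for array 3 and 0.38 for array 4. How many of all probes moved closer to 0 was not tested, so the 7 of 10 cannot be called particular to these genes. Without array 2 the ratios were -0.25 for Snap25, -0.20 for Vamp2, -0.17 for Vamp1, -0.13 for Syt2, -0.10 for Syn2, and between -0.04 and 0.06 for Stx1a, Syt1, Syn1, Cplx1 and Cplx2. At an unadjusted p under 0.05 there were then 5 of 63 member probes, 7.94%, against 7.99% of all probes. They were Stx7, Snap91, the upstream Snap25 probe, the dimmer Syt4 probe and Syt12, and none had an adjusted p under 0.598 (limma, Benjamini-Hochberg). Of these, Syt12 was the 1 with a ratio above 0, at 0.26 ± 0.09, or 0.14 ± 0.11 with all arrays.

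Without replicate 4 the counts were higher. Array 2 was then the only array with the female in Cy5, so that the dye and array 2 cannot be told apart. Each probe's own spread again came from arrays 1 and 3. At an unadjusted p under 0.05 there were 24 of 62 member probes, 38.7%, against 29.6% of all probes. An adjusted p under 0.05 was reached by 6 of 62 member probes, 9.68%, against 6.78% of all probes (limma, Benjamini-Hochberg). These were both Snap25 probes (-1.40 and -1.52, adjusted p = 0.0309), Snap91 (-0.77, adjusted p = 0.0317), Vamp7 (-0.69, adjusted p = 0.0362), Syn1 (-0.52, adjusted p = 0.0428) and Stx1a (-0.51, adjusted p = 0.0439). All were lower in females in this fit. On array 2 alone the ratios were -2.67 and -3.26 for Snap25, -1.40 for Snap91 and -1.35 for Vamp7. They were -0.90 for Syn1 and -0.82 for Stx1a. Array 2 held male 2, whose tissue markers stood apart, and the part of that animal in these calls was not tested. Treating females and males as unpaired gave 10 of 63 member probes at an unadjusted p under 0.05, 15.9%, against 7.85% of all probes, 8 of them with a ratio below 0 and 0 past adjustment.

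Dye effects were larger than sex effects for several members. The dye term had an adjusted p under 0.05 (limma, Benjamini-Hochberg) for 10 of 63 member probes, 15.9%, against 12.7% of all probes. The largest, in log2 units of Cy5 over Cy3, were -1.27 ± 0.23 for Stx6 of the trans-Golgi network, -1.22 ± 0.15 for Snap47, -1.21 ± 0.17 for the dimmer Cplx1 probe and -1.12 ± 0.15 for Vamp2. Others were Stxbp5 (tomosyn, an inhibitor of SNARE assembly, -0.69), Syt12 (-0.67), Snap23 (-0.40), Snap29 (0.41) and Stx19 (0.44). For Stx6, whose ratio was 1.33, -2.07, 0.74 and -0.94 on arrays 1 to 4, the fitted sex ratio was -0.24 ± 0.23 with all arrays and 0.05 ± 0.15 without replicate 2.

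The remaining members gave no unadjusted p under 0.05 with all arrays. Golgi and endoplasmic reticulum syntaxins gave -0.02 ± 0.08 for Stx5 and -0.18 ± 0.09 for Stx18, or 0.06 ± 0.07 and -0.10 ± 0.09 without replicate 2. The syntaxins of endosomes and autophagosomes gave 0.01 ± 0.06 for Stx8, -0.11 ± 0.07 for Stx12 and -0.05 ± 0.06 for Stx17, or -0.02 ± 0.07, -0.07 ± 0.07 and -0.06 ± 0.07 without replicate 2. Stx2, Stx3 and Stx11 of plasma and intracellular membranes lay between -0.09 and 0.03, or between -0.10 and 0.04 without replicate 2. Vamp3, the cellubrevin of recycling endosomes, gave 0.06 ± 0.14, or -0.11 ± 0.09 without replicate 2. The Vamp4 probes gave -0.11 ± 0.07 and 0.13 ± 0.12, or -0.06 ± 0.07 and -0.01 ± 0.08 without replicate 2. Syt7, a slow, high-affinity calcium sensor, gave -0.29 ± 0.15, and Syt17 gave -0.29 ± 0.21, or -0.01 ± 0.09 without replicate 2. Syt10 gave -0.03 ± 0.15 with all arrays and -0.23 ± 0.08 without replicate 2 (limma, unadjusted p = 0.0513). The standard deviation over animals after removal of the dye effect was larger in males for 40 of 62 member probes, against 61.6% of all probes.

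The other genes of the fusion pathway were taken from lists of further SNAREs and their recycling factors, and of active zone and vesicle proteins, each gene at its brightest probe. At an unadjusted p under 0.05 (limma), 5.01% of all 14603 genes were higher in females and 3.51% higher in males, and the median ratio over all genes was 0.02. Of the further SNAREs, recycling factors and Sec1-family proteins, 23 of 26 were tested, 1 was lower in females at that threshold and 0 higher, the ratios of 17 lay below 0 (median -0.11). The 1 was Napb, a SNAP adaptor that helps to take SNARE bundles apart, at -0.36 ± 0.08 with a ratio below 0 on all 4 arrays. Next came Sytl4 (-0.33 ± 0.13) and Sec22a (-0.21 ± 0.08).

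Of the active zone and vesicle proteins, 44 of 47 were tested, 1 was lower in females and 2 higher at that threshold, the ratios of 26 lay below 0 (median -0.04). Sypl1, a relative of synaptophysin, gave -0.57 ± 0.11, with ratios of -0.55, -0.86, -0.55 and -0.31 on arrays 1 to 4. Rims3 of the active zone gave 0.38 ± 0.08, with ratios of -0.44, 1.3, -0.36 and 1.02, whose sign turned with the dye. Erc2, an active zone scaffold, gave 0.21 ± 0.07 with a ratio above 0 on 3 of 4 arrays. None of these genes had a Benjamini-Hochberg adjusted p under 0.555 in limma.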

How the data were processed

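The submitters' processing notes name Agilent Feature Extraction 10.7.3.1. Spot and local background signals are intensity values before any correction, per the file headers, which also give the software's own ratio of Cy5 to Cy3 on a log10 scale. A deposited table of log2 values was rebuilt for 100% of its entries, within 0.01, as median signal less median background, each sample then centred on a median of 0. The 2 files of an array were identical, and each sample's dye came from the labels. Lone carriage returns on array 4 (2) were read as line ends. Columns of other samples numbered 0.

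Mean signals were corrected with normexp (offset 50) and loess-normalized on each array (control spots had weight 0) with limma 3.58.1 (under R 4.3.3, with version 1.17.8 of the data.table package). Spots called outliers were dropped before a probe's spots were averaged. To be tested, a probe needed more than 0.5 of its spots well above background in every female or in every male. The log2 ratio was fitted with lmFit and eBayes with terms for sex and dye, and p-values were Benjamini-Hochberg adjusted over all 21995 probes. Tables and figures were made with Python 3.11.15 (pandas 2.3.3, numpy 2.4.6, matplotlib 3.10.9), and the fit was tested on simulated data.

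Pairing comes from the shared array, which is the block of the fit. Over 21823 probes, how far a female lay from the female mean and the male of the same array from the male mean correlated at 0.57, 0.65, 0.41 and -0.05 on arrays 1 to 4; probes are not independent replicates. Members, lists and tests were chosen with earlier results of these data known. Every member could be named, and values in all animals were given for up to 6 genes in each direction with the smallest p at the brightest probe and for 10 genes of the neuronal fusion set; 2 member genes are not reported here. From each pathway list, up to 3 genes with the smallest p were named. Alternatives were no dye term, no replicate block, other background corrections and normalizations, the scanner's log ratio, the deposited value table, other filters, a robust prior, and each replicate left out. The number of arrays limits the precision. Sequences are those of the array files.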

Additional observations from a re-analysis of the deposited data

Results flagged for a closer look

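Among 40 sets of 4 animals tested for a single animal far from the others (20 genes in each sex), 5 showed one. The nominal chance rate of the test is about 1 in 20 for independent sets without a dye effect. Here each set held animals of both dyes with the dye effect left in, and all genes came from the same animals. The count of 5 therefore cannot be set against that rate. The Cplx2 level was 12.42 in female 2, against 11.11 to 11.28 in the other females, and 12.96 in male 2, against 11.17 to 11.28 in the other males. Male 2 was also the far animal for Snap25 (16.28, others 15.00 to 15.07), Snap91 (11.67, others 10.86 to 10.91) and Stx1a (14.16, others 12.94 to 13.08). All 5 belong to the animals of array 2. Male 2 also had the highest median over the markers of cortex, hippocampus and striatum and the lowest over the hypothalamic markers. The part of these markers in the levels above was not tested.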

How the results depend on the processing

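The number of member probes at an unadjusted p under 0.05 was 2 in the fit reported. It was 1 with no dye term, 10 with no replicate block (the females and males unpaired), 7 with median centring, 4 with the scanner software's log ratio, 8 with the deposited value table and 5 with no filter on dim probes. Leaving out each replicate in turn gave 2 to 24, the highest without replicate 4. The number of all probes past the adjusted threshold was 0 in every alternative except without replicate 4 (1479), so leaving out replicates gave 0 to 1479. The members' median was -0.14 with the deposited value table, where that of all probes was -0.06, and -0.07 to -0.02 with a replicate left out. Of 320 values of named genes under the alternatives, 308 kept their direction and side of the threshold. Those that changed sign were Syt2 with the deposited value table (-0.0108) and, with replicates left out, Syt2 (-0.1305 to 0.2561), Cplx1 (-0.40 to 0.0553), Cplx2 (-0.3076 to 0.0154) and Syn2 (-0.1024 to 0.0333). The sign of Syt2 turned without replicate 2 (-0.13) and without replicate 3 (-0.0028), that of Cplx1 and Cplx2 without replicate 2, and that of Syn2 without replicate 3 (0.0094) and without replicate 4. The other 5, all without replicate 4, passed the threshold there. The cause was not tested. Stx7 kept an unadjusted p under 0.05 in 16 of 16 probe-level fits, with a ratio of -0.51 to -0.40, and its lowest adjusted p was 0.053. The replicate block changed no adjusted call.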
